A study of Oryza sativa with 2 samples.

Results

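The respiratory burst NADPH oxidases (RBOH proteins) of rice are described here through 9 gene models of the deposited count table, which holds 55986 gene models in all. The members were chosen by locus identifier, as loci of the rice RBOH family. The rule uses no measured value, though it was set with earlier results of these data known. One of them, LOC_Os01g25820, is named RBOHB in the gene name table used here. For the other 8 no matching symbol was found in that table, so they are given by locus identifier. Messenger RNA came from whole seedlings of the rice cultivar CARI Dhan 7 after 14 days. The control seeds germinated in distilled water (0 dS/m), and the salinity seeds in a solution of sodium chloride, sodium sulphate, calcium chloride and magnesium sulphate with an electrical conductivity of 6 dS/m. Each group had 1 library. With no replicate library, the differences below carry no p-value, and their intervals cover counting error alone.

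RBOH proteins sit in the plasma membrane and pass electrons from NADPH in the cytosol to oxygen outside the cell, which yields superoxide. Superoxide is turned into hydrogen peroxide, and both act as signals in immunity, in stomatal closure, in root growth and in the response to salt and abscisic acid. The enzymes are switched on by calcium, which binds EF-hands in the N-terminal part of the protein, by protein kinases, and by small GTPases of the Rac/ROP family. The N-terminal part of rice RBOHB is known to bind such a GTPase.

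The libraries held 45359020 (control) and 15031328 (salinity) counts. Every salinity value was even, as were 61.7% of the control values above 0, and 70.6% of the salinity values above 0 were multiples of 4. Intervals therefore use an approximate read-pair scale, inferred from these values, in which 2 control counts or 4 salinity counts make 1 pair (22679510 and 3757832 pairs). Levels are in CPM, counts per 1e6 counts of the library after TMM scaling, and levels of different genes are compared only as CPM per kilobase of exon. A gene was called higher or lower in the salinity library when the whole 95% interval of its ratio lay beyond 2-fold. Such a call compares 2 libraries, not the conditions.

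All 9 gene models are long and split into many exons. Their exon length ran from 2782 to 3976 bases, against a median of 1383 bases over the whole table, and their merged exon blocks numbered 10 to 15, against a median of 3. The models span 4537 to 11735 bases of the genome. The most abundant member, LOC_Os11g33120 (chromosome 11, 19588956 to 19596476, minus strand), has 10 exon blocks, and the longest span belongs to LOC_Os01g53294 (chromosome 1, 30622671 to 30634405, plus strand), with 8953 intron bases. Coordinates are those of the deposited table, with the genome build not given in the sources used here.

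Exon bases of 2 members are also part of a model on the other strand. In LOC_Os01g61880 (chromosome 1, 35813148 to 35817684, plus strand), 74.5% of the exon bases overlap LOC_Os01g61890, whose own level was 53.2 CPM (control) and 59.9 CPM (salinity). In LOC_Os08g35210 (chromosome 8, 22210681 to 22220352, plus strand), 23.0% overlap LOC_Os08g35220, which had 5.43 and 3.34 CPM. The use of strand in counting was not given in the sources used here, so the counts of these 2 members are uncertain.

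**Figure D1:**
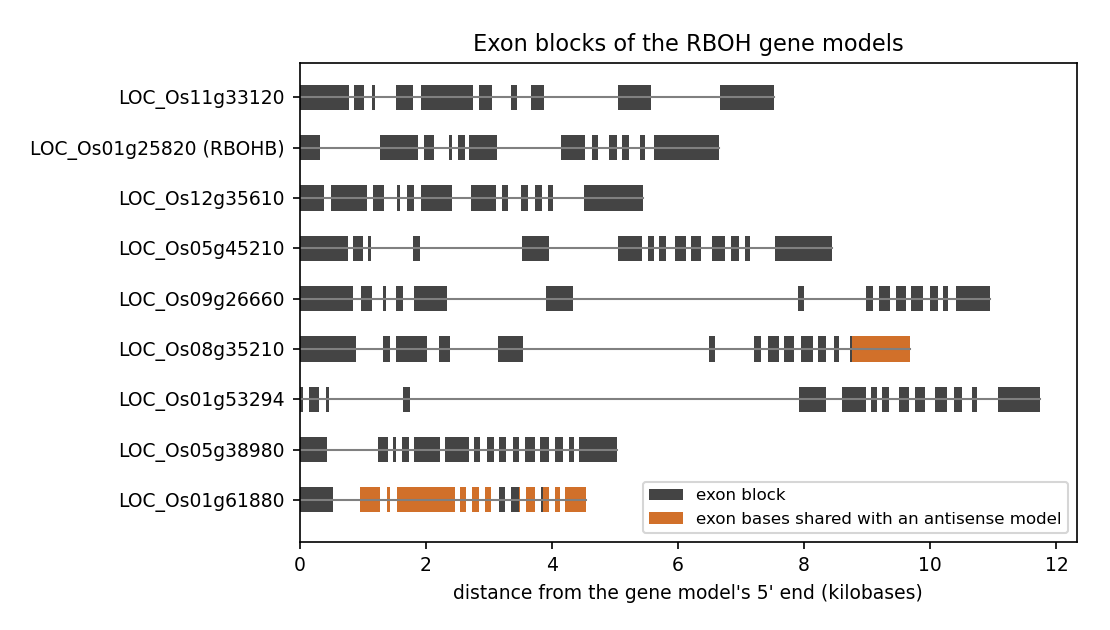
Exon blocks of the 9 RBOH gene models, drawn from each model's 5′ end in kilobases, with thin lines for introns. Orange marks exon bases that an antisense model also covers, which make up 74.5% of LOC_Os01g61880 and 23.0% of LOC_Os08g35210.

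No RBOH gene passed the size rule in either direction, 0 of 9 higher and 0 of 9 lower. The same rule called 7.97% higher and 5.17% lower among 26638 measured gene models, those whose summed counts reached 10. With total counts in place of TMM factors these shares were 6.15% and 7.98%, and lower models made up 56.5% of the calls in place of 39.3%. All 9 members met that minimum. Smaller differences went both ways. For 5 members the whole interval lay above no change and for 2 it lay below, against 25.3% and 25.2% of all measured models. Whether an interval excludes no change depends on read number. These members had 816 to 10139 control counts, while measured models needed only 10 summed counts, so the shares are not directly comparable. With an interval beyond 1.5-fold, 1 member was higher (LOC_Os11g33120) and 1 lower (LOC_Os12g35610), against 12.8% and 10.5% of all measured models. The reading against no change was added after the values were seen, and it gave the same 5 and 2 counts with total counts, upper-quartile factors and DESeq2 size factors. With counts as deposited, or both libraries divided by 2, it gave 5 above and 3 below, the third being LOC_Os05g38980. In whole seedlings, more cells of a type and more RNA per cell cannot be told apart. The median log2 ratio of the 9 members was 0.56, against -0.04 over all measured models.

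LOC_Os11g33120 had 10139 control and 4526 salinity counts, a control level of 205 CPM and a salinity level of 329 CPM. It stood 1.61-fold higher under salinity, and its log2 ratio of 0.68 had an interval from 0.59 to 0.78. The interval lay above no change and below 2-fold. RBOHB (LOC_Os01g25820, chromosome 1, 14621295 to 14627937, minus strand) had 6802 control and 2972 salinity counts, or 137 and 216 CPM. Its log2 ratio was 0.65 (interval 0.54 to 0.77), a 1.57-fold higher level. These are the 2 members with the most reads and the narrowest intervals.

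A further 3 members had ratios close to these. LOC_Os01g53294 went from 816 control to 368 salinity counts, a control level of 16.5 CPM and a salinity level of 26.7 CPM. The log2 ratio was 0.70, and its interval of 0.36 to 1.03 reached past 2-fold. LOC_Os09g26660 (chromosome 9, 16186280 to 16197221, plus strand) had 2161 and 906 counts, or 43.6 and 65.8 CPM, with a log2 ratio of 0.60 (interval 0.38 to 0.80). LOC_Os08g35210, one of the members that share exon bases, had 2248 and 920 counts, or 45.4 and 66.8 CPM, with a log2 ratio of 0.56 (interval 0.35 to 0.76). The ratios of these 5 members thus ran from 0.56 to 0.70, while their control levels ran from 5.92 to 51.5 CPM per kilobase.

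The lower side held 2 well-measured members. LOC_Os12g35610 (chromosome 12, 21648123 to 21653570, plus strand) had 2449 control and 316 salinity counts, a control level of 49.4 CPM and a salinity level of 23.0 CPM. Its level was 2.14-fold lower under salinity (log2 ratio -1.10), but the interval of -1.45 to -0.78 crossed the 2-fold line. With total counts in place of TMM factors the ratio was -1.35 (interval -1.71 to -1.03) and the gene was called lower. LOC_Os05g45210 (chromosome 5, 26237458 to 26245892, minus strand) had 2306 and 400 counts, or 46.6 and 29.1 CPM. Its log2 ratio was -0.67 (interval -0.99 to -0.38). In control CPM per kilobase these genes stood at 14.1 and 12.5, beside LOC_Os09g26660 at 12.1 and LOC_Os08g35210 at 11.5, whose ratios lay on the other side of no change.

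The remaining 2 members were barely detected. LOC_Os05g38980 (chromosome 5, 22860152 to 22865186, plus strand) had 107 control and 12 salinity counts, the latter 3 read pairs. Its control level was 2.16 CPM and its salinity level 0.872 CPM. The log2 ratio of -1.10 had an interval from -3.63 to 0.32. LOC_Os01g61880, one of the members that share exon bases, had 56 control and 16 salinity counts, or 1.13 and 1.16 CPM. Its interval ran from -1.93 to 1.56. On the read-pair scale a difference in either gene was not detectable at this depth. For LOC_Os05g38980 that rests on the scale, since its interval lay below no change with counts as deposited (-2.31 to -0.45) and with both libraries divided by 2 (-2.82 to -0.09). Counting by the point estimate alone, 0 members were beyond 2-fold higher and 2 were beyond 2-fold lower, LOC_Os12g35610 and LOC_Os05g38980, against 16.9% and 18.0% of all measured models.

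**Figure D2:**
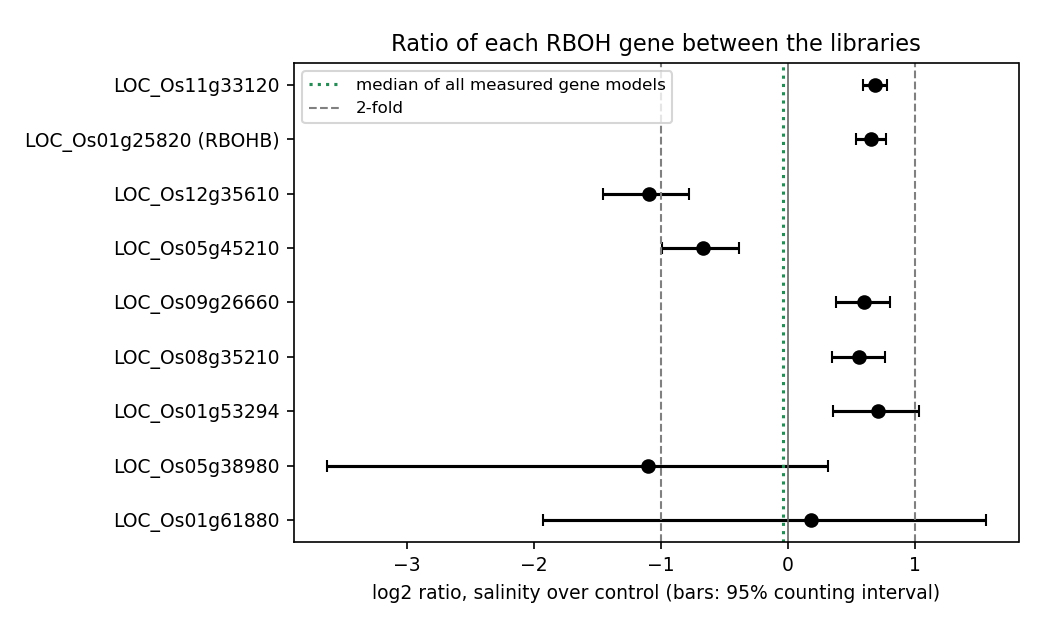
Log2 ratio of each RBOH gene, salinity over control, with its 95% counting interval (1 library per group). Dashed lines mark 2-fold and the dotted line the median of all measured gene models at -0.04. The ratios of 5 genes lie between 0.56 and 0.70, and the whole intervals of LOC_Os12g35610 and LOC_Os05g45210 lie below no change. The ratio of LOC_Os05g38980 is -1.10, with an interval that spans no change.

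Per kilobase of exon the members fell into tiers. In the control, LOC_Os11g33120 stood at 51.5 CPM per kilobase (counting interval 50.1 to 52.9) and RBOHB at 39.3 (interval 38.0 to 40.6). These levels exceeded those of 92.7% and 90.2% of the measured gene models. The next tier held LOC_Os12g35610 at 14.1, LOC_Os05g45210 at 12.5, LOC_Os09g26660 at 12.1 and LOC_Os08g35210 at 11.5 CPM per kilobase. Within it, the intervals of LOC_Os05g45210, LOC_Os09g26660 and LOC_Os08g35210 all overlapped each other. LOC_Os01g53294 followed at 5.92, and LOC_Os05g38980 and LOC_Os01g61880 closed the order at 0.698 and 0.371 CPM per kilobase. The intervals of these last genes, 0.524 to 0.912 and 0.246 to 0.536, overlapped only at their ends.

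The order of the middle tier was different in the salinity library, while the top of the list was not. LOC_Os11g33120 stood at 82.7 CPM per kilobase there (interval 77.9 to 87.7) and RBOHB at 61.7 (interval 57.4 to 66.3). LOC_Os09g26660 and LOC_Os08g35210 came next at 18.3 and 16.9, with overlapping intervals. LOC_Os12g35610 had rank 3 of 9 in the control and rank 7 in the salinity library, at 6.56 CPM per kilobase, behind LOC_Os01g53294 at 9.61 and LOC_Os05g45210 at 7.77. The intervals of these 3 genes all overlapped each other at least in part. Whether ranks 5 to 7 differ beyond counting error was not tested. LOC_Os01g61880 and LOC_Os05g38980, at 0.381 and 0.282, were not separable in the salinity library.

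**Figure D3:**
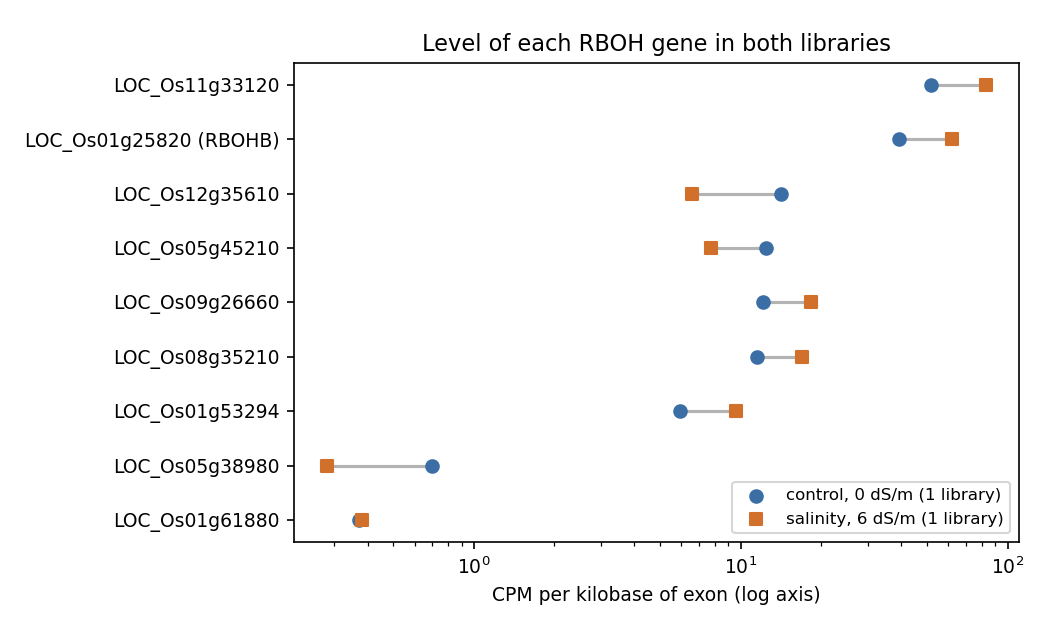
Level of each RBOH gene in CPM per kilobase of exon on a log axis, with the control library as circles and the salinity library as squares (1 library each). LOC_Os11g33120 and RBOHB are the most abundant in both, and LOC_Os12g35610 moves from 14.1 to 6.56 while LOC_Os09g26660 moves from 12.1 to 18.3.

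The scaling of the libraries cancels when 2 members are compared with each other, so the ratio of each pair was taken in both libraries. Of the 36 pairs, 10 differed with the interval widened for 36 comparisons, and 15 with the plain 95% interval. The 10 were every pairing of the 5 members above no change with the 2 below it. RBOHB against LOC_Os12g35610, for example, differed by 1.76 on the log2 scale (95% interval 1.41 to 2.13), and LOC_Os11g33120 against LOC_Os05g45210 by 1.36 (interval 1.05 to 1.69). Among the 5 members themselves none of 10 pairs differed. Their differences were at most 0.14, and no 95% bound lay farther from 0 than 0.53. LOC_Os05g45210 and LOC_Os12g35610 differed by 0.43 (interval -0.03 to 0.89). The pairs compare these 2 libraries, and they were examined after the ratios were known. The groups of 5 and 2 were formed from these same ratios. The split between and within them thus follows in part from the grouping and is not a separate result.

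The make-up of the family's summed level differed between the libraries. The summed level of the 9 members was 148 CPM per kilobase (control) and 204 CPM per kilobase (salinity), 1.38-fold higher. LOC_Os11g33120 and RBOHB together made up 61.3% of the control sum and 70.7% of the salinity sum. Over counts without length, their share was 62.5% (Clopper-Pearson interval 61.7 to 63.4) and 71.8% (interval 70.1 to 73.5), so the difference exceeded counting error. LOC_Os12g35610 held 9.55% of the control sum and 3.21% of the salinity sum, and LOC_Os05g45210 held 8.42% and 3.80%. LOC_Os09g26660 was at 8.19% and 8.95%, and LOC_Os08g35210 at 7.78% and 8.29%.

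**Figure D4:**
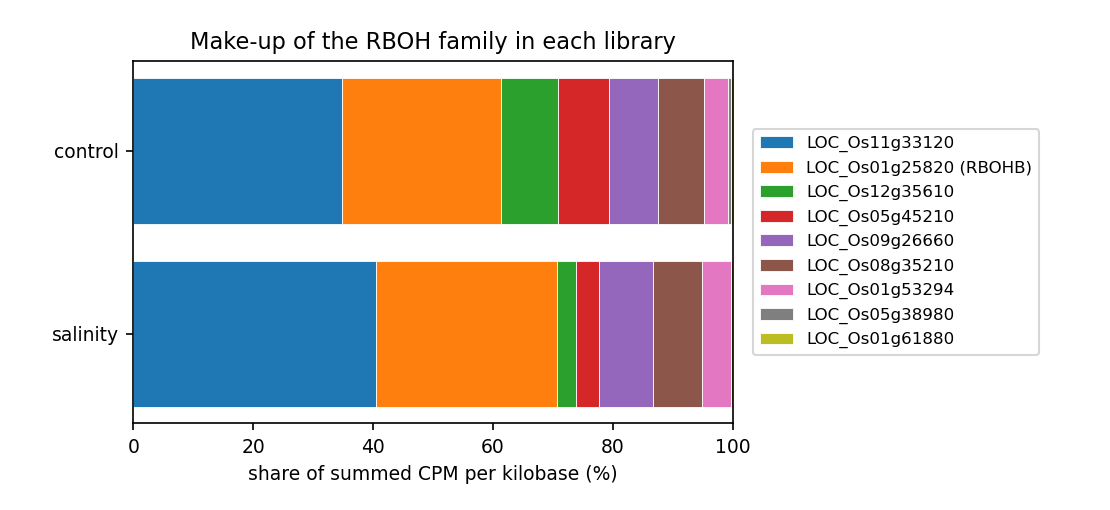
Share of each RBOH gene in the family's summed CPM per kilobase, in percent, for the control and the salinity library (1 library each). LOC_Os11g33120 and RBOHB take 61.3% of the control bar and 70.7% of the salinity bar, and the parts of LOC_Os12g35610 and LOC_Os05g45210 are narrower in the salinity bar.

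Genes that act before and after the oxidases, and a ferric reductase related to the oxidases, were taken from lists of rice loci. Only loci whose name was found at a matching place in the name table were kept. The Rac/ROP small GTPases bind RBOH proteins. Of 7 measured genes, 0 were higher and 1 was lower, against 7.97% and 5.17% of all measured models, with a median log2 ratio of -0.73 (-0.04 over all measured models). RAC4 (LOC_Os06g12790) was the lower one, with 1508 control and 106 salinity counts, or 30.4 and 7.70 CPM. Its log2 ratio was -1.96 (interval -2.60 to -1.43). RAC6 and RAC5 had ratios of -0.87 and -0.89 with intervals below no change, and RAC3 and RAC1 were at -0.44 and -0.70, also below it. RAC1, known for its part in the defence burst of rice, had 617 and 104 counts. RAC2 (-0.73, interval -1.89 to 0.13) and RAC7 (0.08, interval -0.55 to 0.62) spanned no change. For RAC2 this rests on the scaling and the read-pair scale. Its interval lay below no change with total counts (-2.15 to -0.12), with counts as deposited (-1.32 to -0.31) and with both libraries divided by 2 (-1.56 to -0.11). RAC2 also shares exon bases with another model.

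Calcium-dependent protein kinases (CPK) carry the calcium signal and are known to phosphorylate RBOH proteins in Arabidopsis, potato and rice. Of 24 listed genes 20 were measured, and 0 were higher and 1 lower, against 7.97% and 5.17% of all measured models. The lower share was near that of all measured models. The median log2 ratio was -0.15. The lower one was CPK4 (LOC_Os02g03410), with 8423 control and 880 salinity counts, or 170 and 63.9 CPM, a log2 ratio of -1.41 (interval -1.61 to -1.22). It was the most abundant CPK gene per length in the control at 77.9 CPM per kilobase. In the salinity library CPK13 had the highest value, 48.6 CPM per kilobase (counting interval 45.0 to 52.5), which was not separable from CPK20 at 47.0 (interval 42.4 to 51.9). CPK13 shares exon bases with another model, and its log2 ratio was -0.16 (interval -0.28 to -0.04).

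CEBiP and CERK1 encode the receptor parts that sense chitin ahead of the burst. CEBiP had a control level of 87.0 CPM and a salinity level of 107 CPM, with a log2 ratio of 0.30 (interval 0.14 to 0.46). CERK1 was at 52.1 and 57.8 CPM, with a ratio of 0.15 (interval -0.07 to 0.37), and both were within 2-fold. With total counts CEBiP was at 0.05 and CERK1 at -0.10, and both intervals spanned no change. Superoxide dismutases turn superoxide into hydrogen peroxide. Of 4 measured, 0 were called, against 7.97% higher and 5.17% lower of all measured models. The SODCC2 and MnSOD genes were at 0.49 and 0.27, and the SODCC1 and SODCP genes at -0.35 and -0.25, each interval on its own side of no change. With total counts MnSOD was at 0.02, with an interval of -0.15 to 0.18. FRO1 (LOC_Os04g36720) encodes a ferric reductase oxidase, a flavocytochrome related to the RBOH proteins that reduces iron. It was the one called gene of these lists on the higher side, with 2007 control and 2396 salinity counts, or 40.5 and 174 CPM, with a log2 ratio of 2.103 (interval 1.95 to 2.25).

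**Figure D5:**
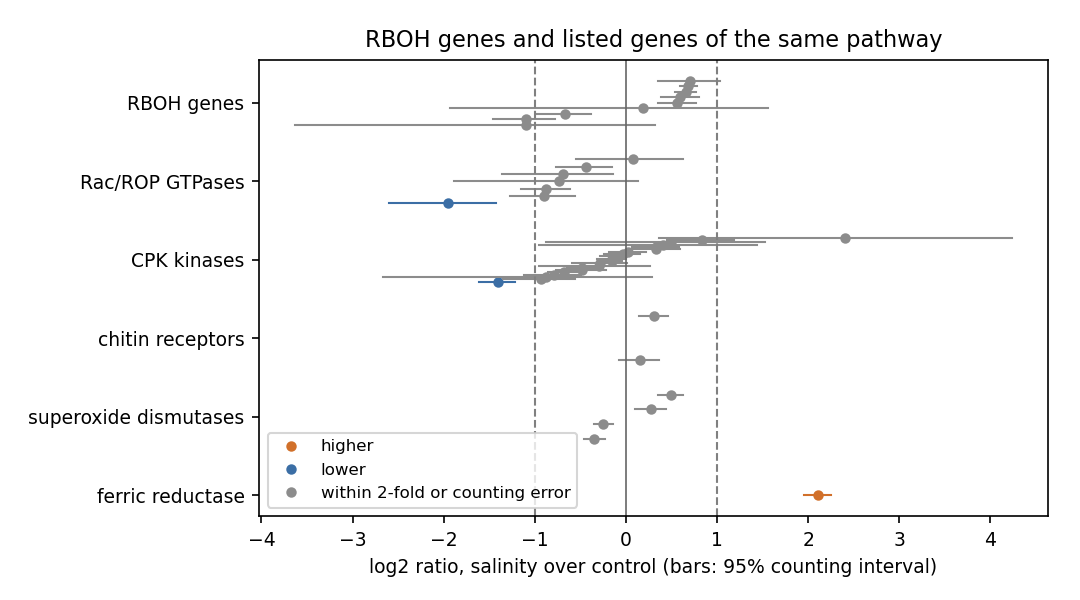
Log2 ratios, salinity over control, of the RBOH genes, of listed genes of the pathway and of FRO1, a related ferric reductase. Each has its 95% counting interval (1 library per group), and dashed lines mark 2-fold. RAC4 and CPK4 are lower and FRO1 is higher by the size rule, and no RBOH gene is called.

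Marker genes of seedling organs were measured in the same libraries. The 6 root markers (Lsi1, Lsi2, NRT2.1, IRT1, Nramp5 and HKT2;1) were all above the detection floor of 3 read pairs in both libraries, and summed to 661 CPM (control) and 729 CPM (salinity). They did not move together. NRT2.1 was higher by the size rule (log2 ratio 1.99), Lsi1 was at 0.48 and IRT1 at 0.41, and Nramp5, Lsi2 and HKT2;1 were at -0.24, -0.64 and -0.76. The green-tissue genes CAB1R and CAB2R summed to 15352 and 20115 CPM, with log2 ratios of 0.77 for CAB1R and 0.00 for CAB2R. Grain markers (AMY1A, AMY3D, AMY3E, GLUA1 and GLUA2) summed to 1427 CPM (control) and 10.2 CPM (salinity library), where AMY1A and GLUA1 had 0 counts. AMY1A alone gave 1390 CPM of the control sum, and GLUA1 had 19 control counts. AMY3E was also lower by the size rule (-4.08), and AMY3D and GLUA2 were within 2-fold or counting error at -0.70 and -0.46. The chlorophyll breakdown genes NYC1 and SGR summed to 54.0 and 204 CPM. NYC1 was higher by the size rule (log2 ratio 2.25). SGR, at 1.09, was not called, as its interval reached down to 0.81. The part of these organs or states in the RBOH ratios was not tested.

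The RBOH loci lie on 6 chromosomes, with 3 of them on chromosome 1 and 2 on chromosome 5, and none is next to another. Of the 36 nearest models (2 on each side), 23 were measured, 3 were higher and 1 was lower, against 7.97% and 5.17% of all measured models. The higher ones were LOC_Os01g53260 near LOC_Os01g53294 (log2 ratio 1.78), LOC_Os09g26670 beside LOC_Os09g26660 (2.55) and LOC_Os05g45200 beside LOC_Os05g45210, a member below no change. LOC_Os05g45200 had 18 control and 40 salinity counts (2.99, interval 1.55 to 4.48). The other near models of LOC_Os05g45210 were LOC_Os05g45180 (-1.16, interval -2.35 to -0.29), LOC_Os05g45220 (-0.87, interval -1.74 to -0.18) and LOC_Os05g45230 (-0.77, interval -2.15 to 0.21). LOC_Os01g53280, beside LOC_Os01g53294, was at -0.83 (interval -1.86 to -0.04). The model called lower, LOC_Os12g35630, lies near LOC_Os12g35610 and had 18861 control and 1562 salinity counts, a log2 ratio of -1.74 (interval -1.90 to -1.60). LOC_Os12g35620, between them, was at -1.01 (interval -1.57 to -0.54).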

How the data were processed

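The submitters' processing notes name FastQC, MultiQC, STAR, featureCounts and DESeq2, with versions, genome build, annotation and counting options not given in the sources used here. Raw counts for each gene model were deposited beside exon positions and lengths, per the file headers. Both sample columns were used.

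TMM factors (edgeR 4.0.16, R 4.3.3) came from the 26638 models whose counts summed to 10 or more. Log2 ratios used a prior of 0.5 read pairs per library, which raises the ratio of genes with few reads because the salinity library is shallower. Intervals are exact conditional binomial (Clopper-Pearson) at 95%, and exact Poisson for levels. Reads carry no molecular identifier and may repeat a molecule, so the intervals and the floor of 3 read pairs describe counting error only. Pair differences are conditional odds ratios from scipy 1.17.1. The procedure was also run on simulated counts. These were drawn on the read-pair scale with counting error alone, so they cannot show whether that scale suits these libraries. DESeq2 1.42.0 gave alternative size factors.

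Names come from a RefSeq gene table (assembly ASM3414082v1), by symbol, chromosome and place within 1 Mb of the chromosome's usual offset. They were found for 53 of 68 listed loci, and the other loci were left out. Text names all 9 members, every gene of lists with 7 or fewer loci, and the called and most abundant genes of longer lists. The neighbouring models, LOC_Os01g61890 and LOC_Os08g35220 were named after their values were seen. Members and lists were chosen with earlier results of these data known.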

Additional observations from a re-analysis of the deposited data

How the results depend on the processing

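No paired analysis was possible because each group had 1 library. Over 13 alternatives, 6 of the 9 RBOH genes kept their side of the size rule throughout. LOC_Os12g35610 was called lower with total counts (-1.35), with an interval beyond 1.5-fold and by the point estimate (-1.10 in both). LOC_Os11g33120 was called higher (0.68) beyond 1.5-fold, and LOC_Os05g38980 lower (-1.10) by the point estimate. That made 1 member lower with total counts, 1 higher and 1 lower beyond 1.5-fold, 2 lower by the point estimate, and 5 higher and 2 lower where the interval had only to exclude no change. Total counts moved the median of all models by -0.25. The members' median ran with it from 0.56 to 0.31. Its distance from the median of all models, 0.60, cannot move with scaling, and was 0.44 with at least 1 count and 0.42 with a prior count of 2.

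Of all models, 2124 were higher and 1376 lower. With total counts 1639 were higher and 2127 lower. With counts as deposited 2755 were lower. By construction of the rule, 3408 and 2803 passed 1.5-fold, 792 and 398 passed 4-fold, 4504 and 4807 the point estimate, and 6738 and 6718 no change. Beyond 1.5-fold 2 of 7 Rac/ROP genes were lower, against 10.5% of all measured models. Beyond 4-fold 0 of 7 Rac/ROP, 0 of 20 CPK and 0 of 1 ferric reductase genes were called, against 792 higher and 398 lower of 26638 models. CPK25, named after its value was seen, was the 1 of 20 CPK genes higher with counts as deposited and by the point estimate. Of 26638 models, 2831 and 4504 were higher in these settings. With counts as deposited, 16 of 36 member pairs differed, and 15 with both libraries divided by 2, since intervals were narrower than for the 10 reported. The share of LOC_Os11g33120 and RBOHB was 62.5% in the control without length, and 66.7% and 77.3% without the 2 members that share exon bases, by construction. The read-pair scale with both libraries divided by 2, the interval excluding no change, the prior in proportion to depth and the pair comparisons were chosen after seeing the data.

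Depth limits LOC_Os05g38980 and LOC_Os01g61880 most. The counts of LOC_Os01g61880 are also uncertain because 74.5% of its exon bases overlap an antisense model. The ratio of LOC_Os01g61880 ran from -0.24 to 0.53 over the alternatives.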
